A study of Mus musculus with 6 samples.

Results

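The 40 genes described here encode the antioxidant and glutathione defence of the mouse cell: the enzymes that remove superoxide and peroxides, the thioredoxin and glutathione systems that supply them with electrons, the Nrf2 regulator with several of its targets, and the metallothioneins. They were chosen by symbol and matched through the Ensembl identifier, and all 40 were found among the 54281 genes of the count table. The study sequenced 6 libraries of GLUTag cells, an immortal mouse enteroendocrine line that secretes GLP-1, by tagging the 3′ ends of polyadenylated RNA. There was a single condition: cells grew for 48 h in low-glucose medium (1 g/L glucose, 10% FBS), and the labels name no treatment or genetic change. The cells of plate 1 (3 libraries) were at passage 23 and those of plate 2 (3 libraries) at passage 27. Plate therefore cannot be separated from passage, and nothing states that the wells of 1 plate were separate cultures, so every error and p-value covers only the spread between these wells. A line under one culture condition is a limited model of a gut L cell.

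Superoxide, formed mainly by respiration, is turned by superoxide dismutases into hydrogen peroxide, which catalase, the glutathione peroxidases and the peroxiredoxins reduce to water. Peroxiredoxins draw electrons from thioredoxin and glutathione peroxidases from glutathione, and both carriers are restored with NADPH by their reductases. The factor Nrf2 is held down by Keap1 in resting cells and, when released, activates many of these genes through the antioxidant response element, whereas metallothioneins, which bind zinc and copper, respond to metals through the factor Mtf1.

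The libraries held between 21399987 and 36488198 counts, and levels are given as CPM, the counts of a gene per 1000000 counts of its library. A gene without a count may hold up to 3 of them, which is 0.0822 to 0.1402 CPM. Since each transcript gives tags from its end only, CPM were not divided by length, and genes were compared on this scale as a measure of transcripts. This takes capture to be alike for all 3′ ends, which was not tested. Reads shared with a copy can also shift a gene against another, as described for Gpx4 below. Values per library are given in the order of plate 1 replicates 1, 2 and 3, followed by the plate 2 libraries with the lowest, middle and highest total, because the plate 2 columns could not be matched to single replicates. Of 7 enteroendocrine markers 6 were at 1 CPM or more in every library, among them Gcg, the proglucagon gene, at 3416 ± 771 CPM, while Pyy was at 0.263 CPM. The epithelial markers Epcam, Krt8, Krt18 and Cdh1 lay between 0.0457 and 0.137 CPM, and the remaining marker of that list, Vil1, was at 2.13 ± 0.735 CPM and above 1 CPM in every library. The blood and hepatocyte lists summed to at most 1.104 CPM and the fibroblast list to 4.54 to 6.96 CPM, nearly all of it Col1a2 at 5.87 ± 0.932 CPM. The endothelial gene Pecam1 was at 39.6 to 99.8 CPM on plate 1 and at 3.41 to 32.7 CPM on plate 2 with Cdh5 at 0.0234 CPM on average, and the part of this difference in the results was not tested. The library of plate 2 whose total was the middle one, called the middle plate 2 library from here on, stood apart: among 5031 genes averaging 30 CPM or more, 354 (7.04%) were under 0.5 times their mean in the rest of plate 2. Results that rest on it are given with and without it.

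The 5′ regions of 5 members are shown because they belong to highly expressed genes or to pairs described below, and hold the short cores of the elements just named. In each of 32851 mouse promoters of 27025 genes in RefSeq (GRCm38.p6) the 250 bases before the start were searched on both strands for the antioxidant response core TGACNNNGC and for the metal response core TGCACNC or TGCGCNC. Of the 40 members 34 had 46 promoters in that table. The first core was in 6 of the 46 (13.04%), 1 each of Gclm, Mt2, Nfe2l2, Prdx1, Sod1 and Txnrd1, compared with 10.2% of all promoters. The metal core was in 12 of the 46 (26.1%), which belong to 10 members, compared with 21.4% of all promoters. Capitals mark the antioxidant core in the upstream regions of Sod1 (chr16:90220512-90220761, plus strand), Prdx1 (chr4:116685349-116685598, plus) and Gclm (chr3:122245307-122245556, plus), where it begins 56, 133 and 134 bases before the start. A match shows only that these letters are present.
Sod1: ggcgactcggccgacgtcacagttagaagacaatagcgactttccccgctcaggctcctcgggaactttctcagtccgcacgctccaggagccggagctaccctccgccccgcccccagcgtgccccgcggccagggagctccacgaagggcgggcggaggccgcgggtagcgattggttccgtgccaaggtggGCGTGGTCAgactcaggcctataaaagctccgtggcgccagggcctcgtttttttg
Prdx1: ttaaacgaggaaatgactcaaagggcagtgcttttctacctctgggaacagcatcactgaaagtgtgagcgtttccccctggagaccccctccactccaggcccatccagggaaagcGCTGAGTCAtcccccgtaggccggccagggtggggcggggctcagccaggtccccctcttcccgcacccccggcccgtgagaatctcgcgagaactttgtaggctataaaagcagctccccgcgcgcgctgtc
Gclm: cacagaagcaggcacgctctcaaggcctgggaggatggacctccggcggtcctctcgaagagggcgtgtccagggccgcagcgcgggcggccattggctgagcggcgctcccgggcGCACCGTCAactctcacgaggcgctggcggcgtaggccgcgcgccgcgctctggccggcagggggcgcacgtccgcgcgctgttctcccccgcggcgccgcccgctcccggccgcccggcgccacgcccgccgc

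In the metallothionein genes, which lie side by side, capitals mark the metal core: 3 matches in Mt2 (chr8:94172368-94172617, plus) that begin 223, 128 and 50 bases before the start, and 1 in Mt1 (chr8:94178839-94179088, plus) that begins 23 bases before it. At least 3 matches in a promoter were present in 1.46% of all genes and, among the members, in Mt2 alone. The antioxidant core of Mt2 begins 79 bases before the start.
Mt1: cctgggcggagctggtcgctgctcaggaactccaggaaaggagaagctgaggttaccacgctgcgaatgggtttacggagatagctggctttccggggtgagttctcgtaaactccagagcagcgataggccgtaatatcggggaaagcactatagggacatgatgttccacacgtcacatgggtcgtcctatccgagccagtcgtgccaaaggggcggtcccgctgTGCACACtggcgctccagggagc
Mt2: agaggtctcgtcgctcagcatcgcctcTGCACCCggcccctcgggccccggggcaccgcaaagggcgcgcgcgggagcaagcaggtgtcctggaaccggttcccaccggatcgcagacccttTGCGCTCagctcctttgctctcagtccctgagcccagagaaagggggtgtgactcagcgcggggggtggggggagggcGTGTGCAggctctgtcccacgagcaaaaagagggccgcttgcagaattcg

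Most of the defence was transcribed in GLUTag cells. Of the 40 members 34 were at 1 CPM or more in every library, 37 held more than 3 counts in every library, and Sod3 and Gpx8 held no count in any. The mean was at least 100 CPM for 11 members, between 10 and 100 CPM for 19, between 1 and 10 CPM for 6 and under 1 CPM for 4. Summed, the members took 5337 ± 166 CPM (5183 to 5640), or 0.534% of all counts, and their median gene was at 52.5 CPM, compared with 21.4 CPM for the median of the 12360 genes at 1 CPM or more in every library. The 4 highest members, Sod1, Prdx1, Gstp1 and Txn1, held 58.9% ± 1.79 of the members' counts (n = 6). The coefficient of variation over the 6 libraries had a median of 15.1% for the 30 members with a mean of at least 10 CPM and of 18.0% for the 8658 genes of that level.

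**Figure D1:**
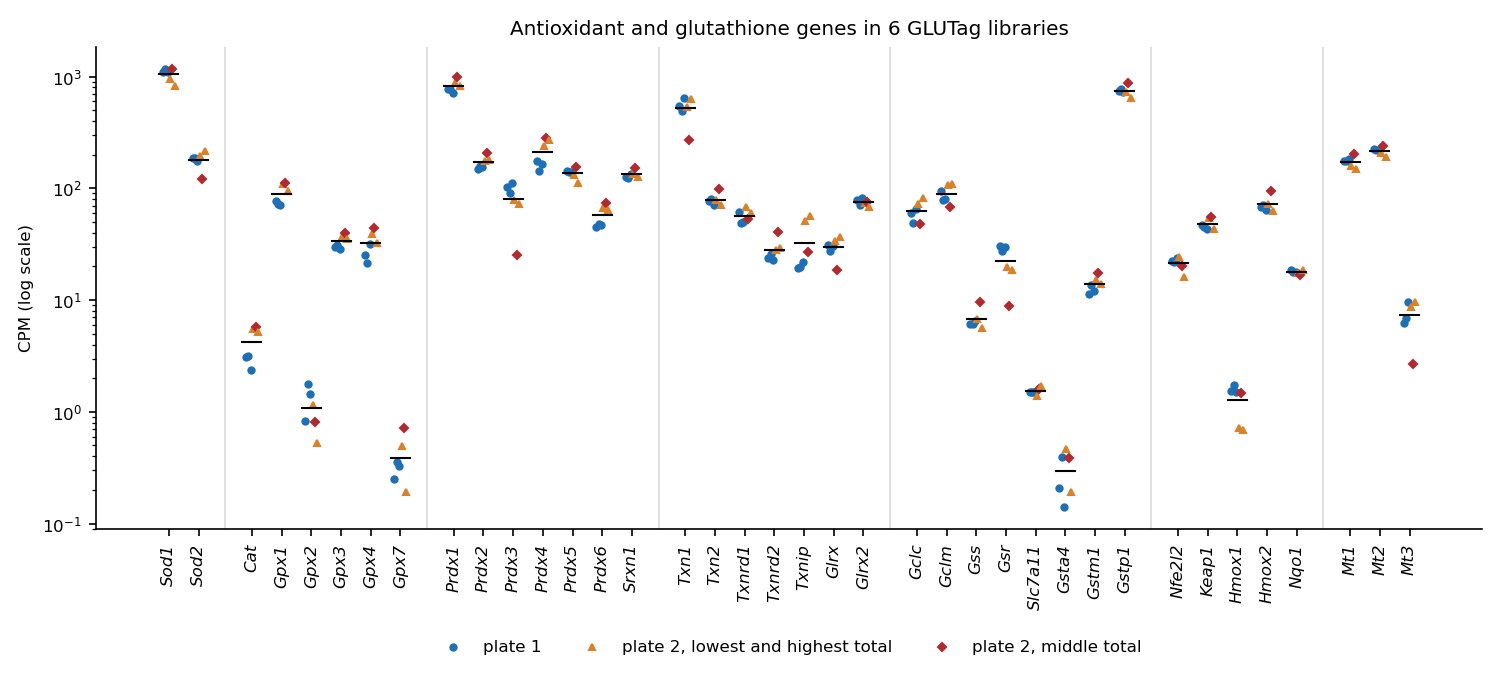
CPM (log axis) of the 38 members with a count, ordered by role, in each of the 6 libraries. Black bars are means over 6 libraries, and the red diamonds are the middle plate 2 library. That library is the lowest for Sod2, Prdx3, Txn1, Glrx, Gclc, Gclm, Gsr, Nqo1 and Mt3.

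By role, the peroxiredoxins with sulfiredoxin took the largest part of the members' counts, 30.3% ± 2.36, with a range of 27.8% to 33.4% over the 6 libraries. Superoxide dismutases took 23.1% ± 2.19, glutathione synthesis, recycling and transferases 17.7% ± 0.507, and the metallothioneins 7.45% ± 0.477. Thioredoxin and glutaredoxin genes held 14.7% to 18.4% in 5 libraries and 10.4% in the middle plate 2 library. Catalase with the glutathione peroxidases, and Nrf2 with its haem and quinone targets, were at 3.01% ± 0.509 and 3.01% ± 0.215. With the pseudogene row of Gpx4, described below, counted in, these shares were 5.56% ± 0.572 and 2.93% ± 0.207, and the order of the other groups was unaltered.

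Sod1, the cytosolic copper and zinc superoxide dismutase (chr16:90220754-90226329, plus strand, GRCm38), was the highest of all members. It was at 1109, 1163 and 1096 CPM on plate 1 and 951, 1172 and 819.7 CPM on plate 2, a mean of 1052 ± 139 CPM and rank 101 among all genes. Sod2, the mitochondrial manganese enzyme (chr17:13006846-13040063, plus), was at 188, 188 and 177 CPM on plate 1 and 195, 121 and 216 CPM on plate 2. Every library held more Sod1 than Sod2, with a mean difference of 2.54 ± 0.446 on the log2(CPM + 1) scale (2.60 on plate 1 and 2.49 on plate 2), and the levels of both genes did not overlap. The widest difference, 3.26, was in the middle plate 2 library, where Sod2 was lowest and Sod1 highest. Without that library the mean difference was 2.40. Sod3, the secreted form, had no count. Processed pseudogene Gm8566 shares 38.2% of the 31-base words in the last 200 bases of Sod1, and it held 0.543 CPM.

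Pairs of members (isoforms, subunits, successive enzymes, or a regulator and its inhibitor) were compared within each library. The difference was the log2 ratio of CPM + 1, tested by flipping its sign in all combinations over the 6 libraries, an exact permutation test (two-sided) whose smallest possible p is 0.031. Of 12 pairs 11 had the same direction in 6 of 6 libraries, and each of these 11 gave the exact p of 0.031 and, adjusted by Benjamini-Hochberg over the 12 pairs, 0.0341. The exception was Gss with Gsr. Any pair with the same direction in 6 of 6 libraries gives this smallest p, and the pairs were chosen with earlier results known. The direction of the difference between Gpx4 and Gpx1 depends on the counting of a pseudogene described with those genes.

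**Figure D2:**
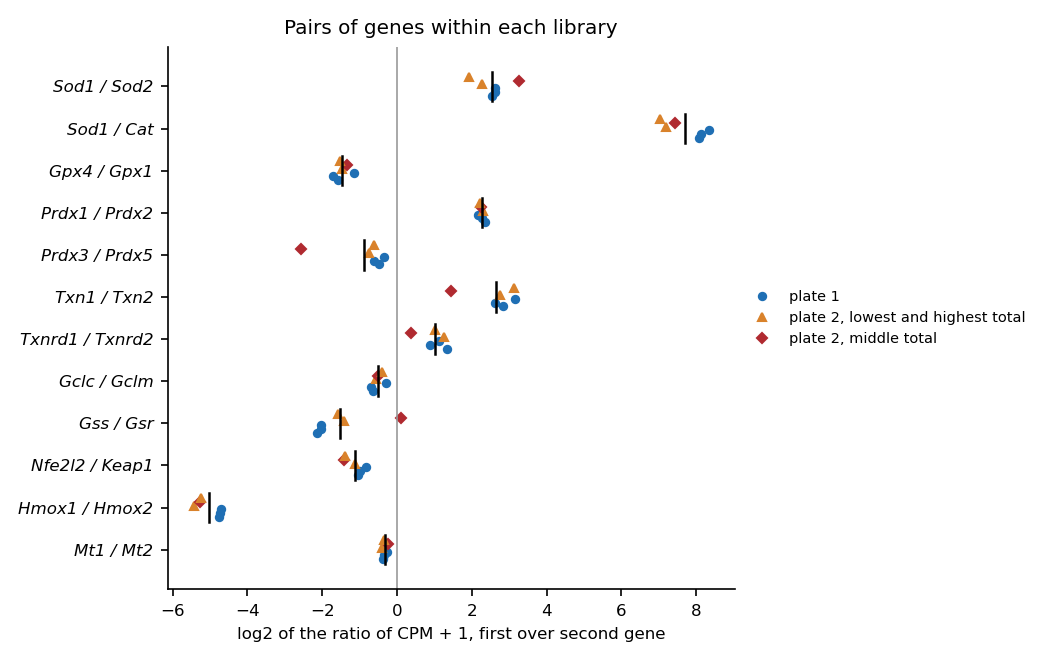
Log2 ratio of CPM + 1, first gene over second, for 12 pairs in each of the 6 libraries, with black bars for the mean. All points of 11 pairs lie on one side of 0, and Gss over Gsr crosses it in the middle plate 2 library.

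Catalase and the glutathione peroxidases, on the rows as deposited, were all below Sod1. Cat, the peroxisomal catalase (chr2:103453849-103485160, minus), was at 3.08, 3.18 and 2.38 CPM on plate 1 and 5.52, 5.73 and 5.21 CPM on plate 2, so plate 2 lay above plate 1 without overlap at a level of 51 to 190 counts per library. The Sod1 over Cat ratio was 7.71 ± 0.546 on the log2(CPM + 1) scale, 8.18 on plate 1 and 7.23 on plate 2. Gpx1, the cytosolic glutathione peroxidase (chr9:108338903-108340343, plus), was at 77.6, 73.1 and 71.6 CPM on plate 1 and 109, 112 and 94.7 CPM on plate 2. Gpx3, the secreted form, was at 33.5 ± 4.44 CPM (28.6 to 40.01), and its range overlapped that of Gpx4. Gpx2, the form of the gut epithelium, was at 0.834, 1.77 and 1.45 CPM on plate 1 and 1.14, 0.809 and 0.521 CPM on plate 2, from 19 to 40 counts per library. Gpx7, a form of the endoplasmic reticulum, was at 0.389 ± 0.189 CPM from 6 to 22 counts, and its relative Gpx8 had none.

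Gpx4, which reduces lipid hydroperoxides in membranes (chr10:80047166-80056439, plus), was at 25.3, 21.6 and 31.8 CPM on plate 1 and 38.6, 44.01 and 32.2 CPM on plate 2. On these values Gpx4 was below Gpx1 in every library, by −1.46 ± 0.199 on the log2(CPM + 1) scale (−1.48 on plate 1, −1.44 on plate 2). However, the transcribed processed pseudogene Gpx4-ps2 shares 100% of the 31-base words of the last 200 bases of Gpx4, and its row held 137, 134 and 151 CPM on plate 1 and 136, 171 and 136 CPM on plate 2. The sum of both rows was 177 ± 21.04 CPM (156 to 215), of which the Gpx4 row was 18.1% ± 3.09. With the sum in place of Gpx4 the direction turned: the log2 ratio to Gpx1 was 0.99 ± 0.228, above 0 in 6 of 6 libraries. The level of Gpx4 is therefore uncertain between 32.3 and 177 CPM, and its order relative to Gpx1 and Gpx3 is uncertain too.

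**Figure D3:**
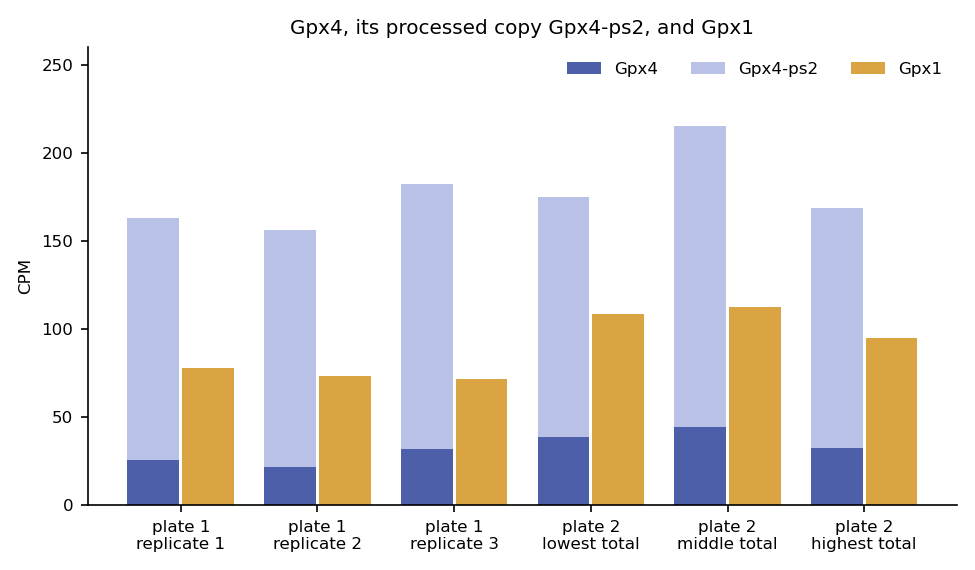
CPM of Gpx4 with Gpx4-ps2 stacked on it, and of Gpx1, in each of the 6 libraries. The Gpx4 row alone is below Gpx1 in every library, and the stack, at 156 to 215 CPM, is above it in every library.

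The peroxiredoxins were led by Prdx1, the main cytosolic form (chr4:116685544-116700822, plus), at 768, 771 and 709 CPM on plate 1 and 883, 989.9 and 830.4 CPM on plate 2. Prdx2, its cytosolic relative, was at 149, 159 and 156 CPM on plate 1 and 177, 207 and 179 CPM on plate 2. Prdx1 was higher by 2.26 ± 0.0659 on the log2(CPM + 1) scale, close to the same in every library (2.18 to 2.36). Pseudogenes Gm21399 and Gm7204 share 35.5% and 34.0% of the words at the end of Prdx1 and held at most 0.357 CPM in any library. Prdx4, the form of the endoplasmic reticulum (chrX:155323918-155340754, minus), was at 175, 143 and 166 CPM on plate 1 and 238, 283 and 273 CPM on plate 2, and all plate 2 libraries were above those of plate 1. Prdx6, which also has phospholipase activity, was at 45.1, 48.4 and 47.01 CPM on plate 1 and 66.9, 73.3 and 63.6 CPM on plate 2, again without overlap. Srxn1, the sulfiredoxin that restores over-oxidised peroxiredoxins, varied little at 133 ± 10.1 CPM (125 to 151).

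Prdx3 is the peroxiredoxin of mitochondria, and Prdx5 is shared between mitochondria, peroxisomes and cytosol. Prdx3 (chr19:60864051-60874556, minus) was at 103, 90.004 and 111 CPM on plate 1 and 78.8, 25.3 and 71.8 CPM on plate 2, and its middle plate 2 library was the lowest by far. Prdx5 (chr19:6906697-6910106, minus) was at 143, 139 and 141 CPM on plate 1 and 132, 155 and 111 CPM on plate 2, where that same library was the highest. Prdx3 was below Prdx5 in every library by −0.89 ± 0.833 on the log2(CPM + 1) scale, −0.48 on plate 1 and −1.31 on plate 2. Without the middle plate 2 library the mean was −0.56, and with 5 libraries the test cannot go below 0.0625. Prdx5 overlaps Trmt112, a gene of the opposite strand with 254 CPM.

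Among the electron carriers, Txn1, the cytosolic thioredoxin (chr4:57943373-57956411, minus), was at 548, 497 and 637 CPM on plate 1 and 530.5, 274 and 632 CPM on plate 2. Of these the middle plate 2 library, with 274 CPM, was far below the other 5. Txn2, the mitochondrial thioredoxin, was at 76.3, 80.5 and 70.5 CPM on plate 1 and 78.2, 99.2 and 71.3 CPM on plate 2, with its highest value in that library. Txn1 exceeded Txn2 by 2.65 ± 0.627 (log2 of CPM + 1, 2.87 on plate 1 and 2.44 on plate 2), and by 2.90 without that library.

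The reductases that restore thioredoxin followed the same order at lower levels. Txnrd1, the cytosolic selenoprotein, was at 61.9, 48.6 and 50.5 CPM on plate 1 and 68.6, 52.6 and 60.5 CPM on plate 2, and Txnrd2, the mitochondrial one, was at 23.8, 25.7 and 22.6 CPM on plate 1 and 27.9, 40.4 and 29.2 CPM on plate 2. The log2(CPM + 1) difference was 1.01 ± 0.349, with 1.12 on plate 1, 0.89 on plate 2 and its smallest value, 0.37, in the middle plate 2 library. Without that library the mean difference was 1.13. The glutaredoxins, which reduce protein bonds with glutathione, were at 29.8 ± 6.31 CPM for Glrx (18.6 to 36.6) and at 78.2, 71.4 and 81.8 CPM on plate 1 and 74.2, 75.9 and 67.8 CPM on plate 2 for the mitochondrial Glrx2, whose plates overlapped on this scale.

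Txnip binds and inhibits thioredoxin and is known as a glucose-responsive gene. Located at chr3:96557957-96561883 (plus), it was at 19.4, 19.8 and 21.7 CPM on plate 1 and 50.7, 26.8 and 56.9 CPM on plate 2. Plate 2 lay above plate 1 without overlap, and it was the most variable member above 10 CPM, with a coefficient of variation of 51.6%. All wells had the same glucose concentration in the medium.

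Glutathione is built in 2 steps, by glutamate-cysteine ligase and by glutathione synthetase. Gclc, the catalytic subunit of the ligase (chr9:77754535-77794485, plus), was at 60.1, 48.5 and 65.05 CPM on plate 1 and 72.5, 47.7 and 82.4 CPM on plate 2. Gclm, the modifier subunit whose upstream region is shown above, was at 93.7, 78.8 and 80.2 CPM on plate 1 and 106, 68.3 and 109 CPM on plate 2. Gclc was lower in every library by −0.51 ± 0.146 on the log2(CPM + 1) scale (−0.54 on plate 1, −0.48 on plate 2), and both subunits were at their lowest in the middle plate 2 library, where their difference, −0.51, lay within the range of the other libraries. Gclm overlaps Gm17494, an opposite-strand transcript with 1420 CPM. Whether counting used strand is not given in the sources used here, so that reads of such partners cannot be told apart.

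Gss, the synthetase, was at 6.08, 6.05 and 6.54 CPM on plate 1 and 6.801, 9.67 and 5.59 CPM on plate 2, with its highest value in the middle plate 2 library. Gsr, which reduces oxidised glutathione with NADPH (chr8:33652523-33698163, plus), was at 30.4, 27.7 and 30.05 CPM on plate 1 and 19.8, 8.86 and 18.7 CPM on plate 2, where that library was the lowest. The plates did not overlap for Gsr. Gss was below Gsr in 5 of 6 libraries, by −1.52 ± 0.849 on the log2(CPM + 1) scale (exact p = 0.0625, also after adjustment), with −2.07 on plate 1, −0.96 on plate 2 and −1.84 without the middle plate 2 library, in which Gss exceeded Gsr by 0.11.

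Slc7a11, the cystine transporter that brings in the limiting amino acid, was low at 1.53 ± 0.104 CPM (1.39 to 1.699, 32 to 62 counts). Its heavy chain partner Slc3a2, which serves other transporters too, was at 96.99 ± 36.1 CPM. Of the transferases, which couple glutathione to electrophiles, Gstp1 (chr19:4035407-4037985, minus) was the highest member of this role at 742, 771 and 721 CPM on plate 1 and 728, 883 and 649 CPM on plate 2. The copies Gstp2 and Gstp-ps share 100% and 80.4% of the words at its end but held 1.82 and 0.0245 CPM, and reads of the copies that were counted in the Gstp1 row cannot be told apart. Gstm1 was at 13.9 ± 2.23 CPM (11.4 to 17.5) and Gsta4, which handles lipid aldehydes, at 0.298 ± 0.134 CPM from 3 to 13 counts.

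Nfe2l2, the gene of Nrf2 (chr2:75675513-75704641, minus), was at 22.4, 21.8 and 23.9 CPM on plate 1 and 24.2, 20.1 and 15.98 CPM on plate 2. Keap1, its inhibitor (chr9:21229730-21239361, minus), was at 47.1, 44.7 and 43.1 CPM on plate 1 and 54.2, 54.9 and 43.4 CPM on plate 2. Keap1 was higher in every library, and the log2(CPM + 1) difference of Nfe2l2 from it was −1.13 ± 0.228 (−0.96 on plate 1, −1.31 on plate 2). Nrf2 activity is set mainly by protein stability, which these libraries do not measure.

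The haem oxygenases differed more than any other pair of isoforms tested. Hmox1, the inducible form and a well-known Nrf2 target, was at 1.54, 1.72 and 1.495 CPM on plate 1 and 0.712, 1.49 and 0.685 CPM on plate 2, from 20 to 46 counts. Hmox2, the constitutive form (chr16:4726361-4766742, plus), was at 67.8, 71.2 and 64.3 CPM on plate 1 and 73.1, 94.9 and 62.3 CPM on plate 2. The log2(CPM + 1) difference was −5.02 ± 0.325, with −4.73 on plate 1 and −5.31 on plate 2. Nqo1, a quinone reductase and Nrf2 target, was the least variable member with a mean above 10 CPM, at 18.5, 17.7 and 17.9 CPM on plate 1 and 17.6, 16.9 and 18.5 CPM on plate 2, a coefficient of variation of 3.53%.

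Of the metallothioneins, Mt2 (chr8:94172664-94173568, plus) was at 224, 220.0 and 219.8 CPM on plate 1 and 209, 240.0 and 191 CPM on plate 2, and Mt1 (chr8:94179082-94180327, plus) was at 174, 174 and 181 CPM on plate 1 and 159, 203 and 149 CPM on plate 2. These neighbours, whose upstream regions are printed above, moved together over the libraries. The log2(CPM + 1) difference of Mt1 from Mt2 was −0.33 ± 0.0569, between −0.24 and −0.39 in single libraries and −0.33 on each plate. This was not particular to neighbours. Sod1, Prdx5 and Gstp1, on other chromosomes, were likewise highest in the middle plate 2 library and lowest in the one with the highest total. The difference of Prdx1 from Prdx2 had a similar SD, 0.0659. Mt3, the form known from brain, on the same stretch of chromosome 8 (chr8:94152607-94154146, plus), was at 6.29, 6.85 and 9.53 CPM on plate 1 and 8.65, 2.65 and 9.702 CPM on plate 2. Unlike Mt1 and Mt2, which were highest in the middle plate 2 library, Mt3 was lowest there.

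Plates are the only split that the labels give, and in such bulk samples fewer cells of a kind and less RNA per cell cannot be told apart. They were compared with edgeR's quasi-likelihood test with TMM scaling over 15669 genes, of which 29 (0.185%) passed an adjusted p of 0.05. Of the members 37 were tested (Sod3, Gpx7 and Gpx8 did not pass the filter on low counts) and 0 passed. At an unadjusted p under 0.05 there were 13 of 37, 3 higher and 10 lower on plate 2, beside 2520 genes (16.1%) in all. With limma-voom 0 members passed. DESeq2 called 3 of 37, with Txnip higher and Gsr and Prdx3 lower on plate 2, where it called 3.7% of all genes. The members' median log2 change was −0.14, and that of all genes tested was 0.03.

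Leaving out the middle plate 2 library changed this count. In the remaining 5 libraries edgeR called 11 of 36 members, compared with 1911 of 15894 genes (12%). The 2 members higher on plate 2 were Txnip and Prdx4, compared with 4.2% of all genes, and the 9 lower were Gsr, Prdx3, Sod1, Hmox1, Prdx5, Mt1, Mt2, Glrx2 and Gstp1, compared with 7.83% of all genes. Leaving out any other library gave 0 called members.

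With TMM the largest differences between plates were those of Gsr, Prdx3, Gpx2, Hmox1 and Txnip, whereas with library totals Txnip (1.14) was followed by Cat (0.93), Gsr (−0.90) and Prdx3 (−0.79). For Gsr the log2 change was −1.17 (SE 0.266, adjusted p = 0.118 in edgeR), with all 3 plate 2 libraries below all 3 of plate 1, and −0.92 (adjusted p = 0.000246) without the middle plate 2 library. For Prdx3 these were −1.06 (SE 0.406, edgeR adjusted p = 0.288) and −0.73 (adjusted p = 0.000606), again with 3 of 3 libraries lower. Txnip had 0.87 (SE 0.249, edgeR adjusted p = 0.161) and 1.0998 (adjusted p = 5.0e-05), with 3 of 3 higher.

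The changes in Gpx2 and Hmox1 rest on few counts. The log2 change of Gpx2 was −0.99 (SE 0.442, edgeR adjusted p = 0.313), and its plates overlapped. Hmox1 was at −0.98 (SE 0.400, edgeR adjusted p = 0.269) and, without the middle plate 2 library, at −1.49 (adjusted p = 0.0415). Sod1, the highest member, was at −0.46 (SE 0.1502, edgeR adjusted p = 0.188) and, without that library, at −0.65 (adjusted p = 0.000679). With library totals in edgeR it was at −0.19 (adjusted p = 0.364), and its plates overlapped in plain CPM. Prdx4 was at 0.45 (SE 0.123, edgeR adjusted p = 0.142) and, without the middle plate 2 library, at 0.36 (adjusted p = 0.0332). For Cat these were 0.66 (SE 0.215, edgeR adjusted p = 0.191) and 0.58 (adjusted p = 0.134). With library totals in edgeR, Prdx4 was at 0.71 (adjusted p = 0.0276) and Cat at 0.93 (adjusted p = 0.0358).

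**Figure D4:**
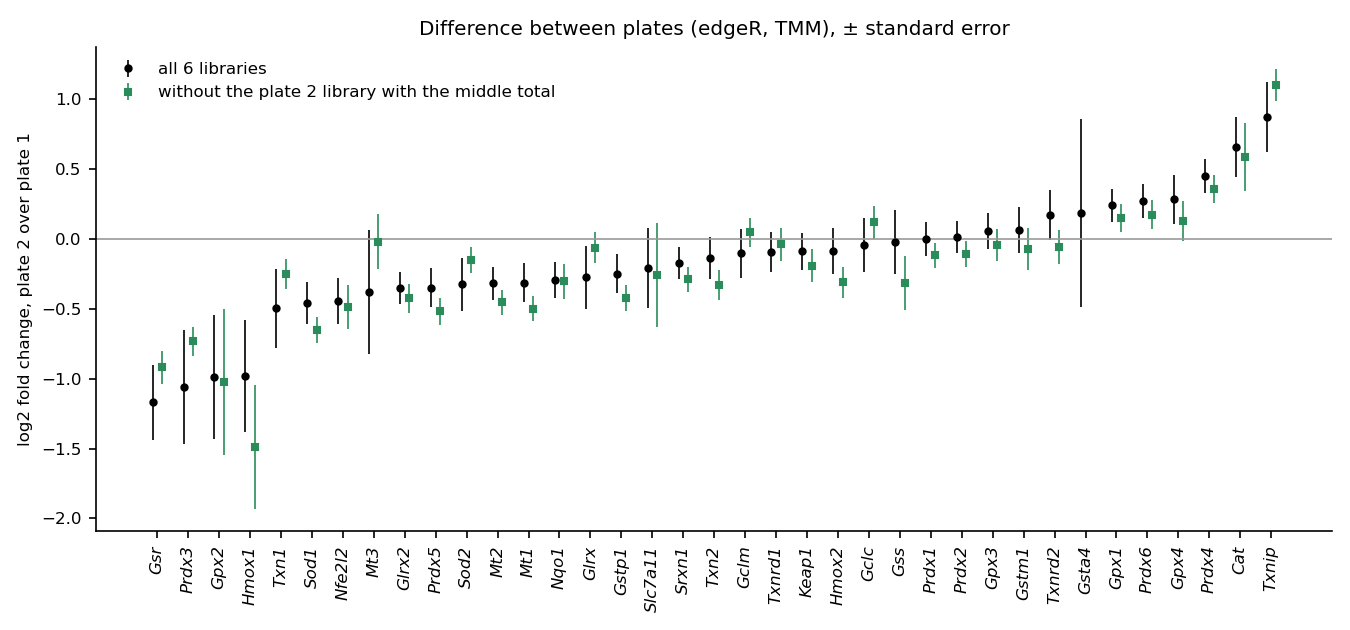
Log2 fold change between plates (plate 2 over plate 1, edgeR with TMM) of the 37 members tested, with bars for 1 standard error, for all 6 libraries (black) and without the middle plate 2 library (green). Gsr and Prdx3 are lowest or next to lowest and Txnip is highest with all 6 libraries.

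In TMM-scaled CPM the plates did not overlap for 16 of the 37 members. Higher on plate 2 were 5 (Prdx4, Txnip, Cat, Prdx6 and Gpx1) against 12.8% of all genes, and lower were 11 (Gsr, Glrx2, Sod1, Nfe2l2, Mt2, Prdx5, Hmox1, Prdx3, Nqo1, Mt1 and Slc7a11) against 12%. This split depended on the scaling. In plain CPM 11 members were higher without overlap, beside 35.2% of all genes, and 3 (Gsr, Prdx3 and Hmox1) lower, beside 4%. With library totals in place of TMM the median log2 change of all genes moved from 0.03 to 0.30 and that of the members from −0.14 to 0.13, and edgeR called 5 of 37 members, all higher (Prdx4, Prdx6, Cat, Txnip and Gpx1), beside 9.46% of genes. Bc1, a small non-coding RNA and the most abundant row, took 9.74% to 11.97% of the counts on plate 1 and 3.44% to 4.77% on plate 2, and its part in this shift was not tested. In every setting that tested them, Gsr, Prdx3, Sod1, Hmox1, Glrx2, Nfe2l2, Mt1, Mt2, Mt3, Prdx5, Nqo1, Gpx2, Txn1, Sod2 and Glrx kept a negative sign. Txnip, Prdx4, Prdx6, Cat, Gpx1 and Gpx4 kept a positive one. The settings reuse the same libraries, and the share of all genes that kept a sign was not taken. A kept sign therefore shows nothing particular to these members.

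Within plate 2, the middle library differed from the others in named members. Of the 24 members averaging 30 CPM or more, 3 were under 0.5 times their mean in the rest of plate 2 there: Prdx3 at 0.336, Txn1 at 0.470 and Txnip at 0.497 times. That is beside 7.04% of all genes of that level. Sod2, Gclc and Gclm were at 0.588, 0.616 and 0.635 times, and 17 of the 24 members were above 1. The share of all genes above 1 was not taken, so this count shows nothing particular to the members. Below 30 CPM, Gsr was at 0.461 and Mt3 at 0.289 times.

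The base composition at the 3′ end moved with these ratios. The GC content of the last 200 bases of the annotated transcripts was 28% for Prdx3, 32.2% for Txnip, 34% for Txn1, 34.5% for Gsr and 27% for Gclc, all at 0.616 times or less in that library. Over the 24 members Spearman's rho between end GC and the ratio was 0.557, as a description of 1 library whose points share its depth. Sod2 at 53.5% GC and Mt3 at 55.3% were low as well, and among members below 30 CPM Nfe2l2 at 27% GC was at 1.002 times, Hmox1 at 34.5% at 2.13 times from few counts, and Slc7a11 at 36% at 1.03 times. The part of base composition in these values was not tested.

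**Figure D5:**
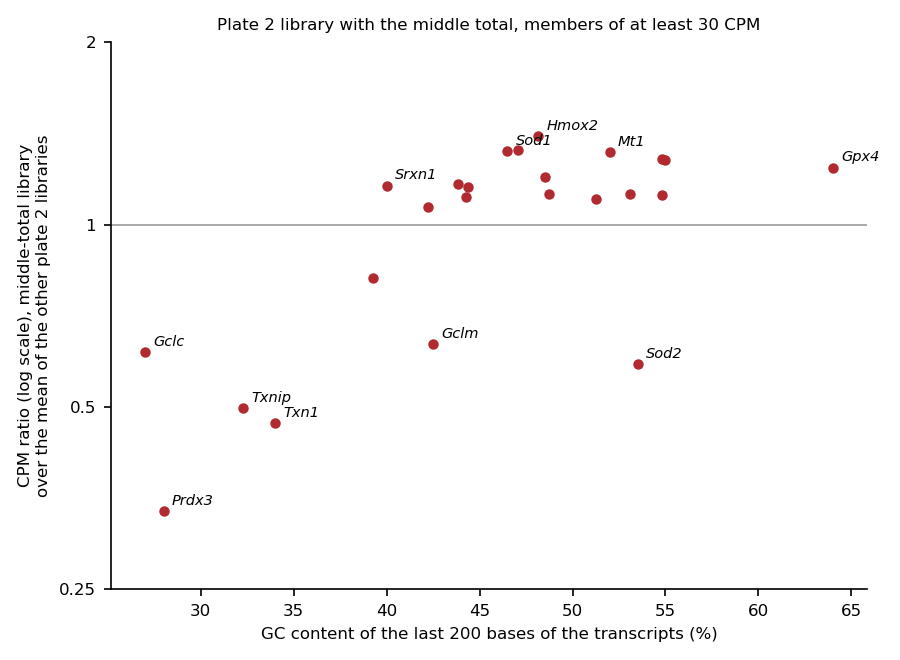
For the 24 members averaging 30 CPM or more, the GC content (%) of the last 200 bases of their transcripts against the CPM ratio (log axis) of the middle plate 2 library over the mean of the other 2 libraries of plate 2. Prdx3, Txnip, Txn1 and Gclc combine a GC content of 34% or less with a ratio under 0.62, and Sod2 is low at 53.5%.

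Other genes of the pathway were read from lists of 99 genes. All 8 genes of NADPH supply were at 1 CPM or more in every library, from Nnt at 10.6 ± 1.64 CPM to the transaldolase Taldo1 at 321 ± 38.6 CPM, and so were all 9 genes around Nrf2 control, with Sqstm1 at 185 ± 12.6 CPM and the ligase component Rbx1 at 423 ± 37.5 CPM. Of the further Nrf2 targets 12 of 15 reached this level, led by the ferritin chain Fth1 at 801 ± 99.7 CPM. The thioredoxin-fold and repair list had 14 of 15, the metal and selenoprotein list 9 of 10, glutathione turnover 7 of 11 and the further transferases 11 of 21, with Gsto1 highest at 116 ± 14.9 CPM.

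Among the sources of superoxide and peroxide 5 of 10 reached 1 CPM in every library. These included the monoamine oxidases Maoa at 62.5 ± 3.33 CPM and Maob at 25.8 ± 4.02 CPM and the xanthine dehydrogenase Xdh at 9.04 ± 3.497 CPM. The NADPH oxidase genes Nox1, Nox4, Duox2, Cyba and Cybb were each at 0.0743 CPM or less on average. Of the 99 genes 81 were tested between plates with edgeR and 0 passed, against 0.185% of all genes. At an unadjusted p under 0.05 there were 11 of the 81, against 16.1% of all genes. The median log2 change of the 81 was −0.03. Without the middle plate 2 library 10 of 80 passed, against 12% of all genes in that fit. Higher on plate 2 were 4 of the 80, against 4.2% of all genes, which all came from the 10 tested genes of the metal and selenoprotein list (Slc30a1, a zinc exporter, Sephs2 and Secisbp2, which serve selenoprotein synthesis, and Acsl4, a fatty acid ligase), and lower were 6 of the 80, of other lists, against 7.83% of all genes (Tkt, Mgst3, Glrx3, Park7, Txndc17 and Cbr1).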

How the data were processed

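Polyadenylated RNA from 6 wells of GLUTag cells was made into 3′ end libraries with a kit that reads the sense strand. Per the submitters' processing notes, reads were trimmed with Trim Galore 0.6.4 and assigned with Salmon 1.5.1 on GRCm38. The deposited values are the authors' estimated counts per gene, without length correction or normalization, on GENCODE release M23. Symbols and positions were taken from release M21 of the same build, in which 54107 of 54281 identifiers were found after removal of the version. Plate 2 columns are numbered within the plate and match no single title, so each is called after how its total ranks (lowest, middle or highest). The 15 pairs of libraries differed by more than sampling noise (lowest chi-square per gene 10.2).

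CPM were taken over library totals of 21399987 to 36488198 counts. Counts were rounded for edgeR 4.0.16 (filterByExpr, TMM, quasi-likelihood test with robust dispersion, Benjamini-Hochberg over all genes tested) and for DESeq2 1.42.0. The alternatives were DESeq2, limma-voom (limma 3.58.1), DESeq2 size factors or library totals in edgeR, no filter or a minimum of 1 CPM, other pseudocounts (0.1 and 5 CPM), TMM-scaled CPM, a total without mitochondrial genes, each plate alone, and each library left out. Omitting the middle plate 2 library from levels, adding Gpx4-ps2 to Gpx4, and a replicate block from the column numbers were chosen after seeing the data. On simulated counts for the plate comparison (15669 genes, 200 changed by a fold of 4) edgeR recovered 96% with 3.76% false calls. DESeq2 recovered 94.5% with 6.44% false calls, and limma-voom 95.75% with 4.24%. The simulation gave every gene the same dispersion and held no library that stood apart. These shares therefore do not give the power for the members, whose changes were smaller. The limit given for a gene without a count covers counting error only. Values after ± are SDs over the libraries, and they and the standard errors of the log2 changes cover the spread between these wells.

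The members, lists and pairs were chosen with earlier results of these data known. All 40 members are accounted for. Values in every library are given for Sod1, Sod2, Cat, the highest member of each role, both members of each pair, members called between plates and the 5 largest changes. Values of some others were added after they were seen. Pairs were compared with Python 3.11.15 and SciPy 1.17.1.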

Additional observations from a re-analysis of the deposited data

Results flagged for a closer look

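In 4 of the 37 members with a mean of at least 10 counts, 1 library lay farther from the other 5 than Dixon's critical value for 6 samples allows, and each time it was the highest value, in the middle plate 2 library (the one with the middle total). Chance marks about 1 group in 20. Of all 15708 genes with such a mean 6.66% were marked in some library, and 3.33% with their highest value in this one. Txn2, the mitochondrial thioredoxin, was at 99.24 CPM there and at 70.5 to 80.5 CPM in the others (gap over range 0.651). Txnrd2, its reductase, was at 40.4 CPM and otherwise at 22.6 to 29.2 CPM (0.632). Gss, glutathione synthetase, was at 9.672 CPM and otherwise at 5.59 to 6.80 CPM (0.703). Hmox2, the constitutive haem oxygenase, was at 94.87 CPM and otherwise at 62.3 to 73.1 CPM (0.669). Without that library the means were 75.4, 25.8, 6.21 and 67.8 CPM. The cause was not tested.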

How the results depend on the processing

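The number of members called between plates was 0 with edgeR and TMM, with limma-voom, with DESeq2 size factors in edgeR and with a minimum of 1 CPM, 3 with DESeq2, 5 with library totals and 2 of 38 tested without a filter on low counts (Gsr lower, Txnip higher), and it ranged from 0 to 11 with 1 library left out. The number of genes called was 29 in the reported fit, 579 with DESeq2, 10 with limma-voom, 1482 with library totals and 545 of 27022 tested (2.02%) without a filter, and it ranged from 0 to 1911 with 1 library left out. Of these calls, 27 of 29 were lower on plate 2 in the reported fit, 425 of 579 with DESeq2, and 71 of 1482 with library totals. The log2 difference of Gpx4 from Gpx1 was −1.46, and 0.99 with the counts of Gpx4-ps2 added. The summed level of the members was 5337 CPM, and 5620 CPM when mitochondrial genes (3.98% to 7.27% of counts) were left out of the total. The directions of the 12 pairs held under the other pseudocounts, TMM-scaled CPM, each plate alone and each library left out. For the 11 pairs with the same direction in every library, none of these settings could turn it, so they were no test of it. With 5 libraries the exact permutation test cannot give a p below 0.0625. The cause of the changes with tool and scaling was not tested. The labels number the wells 1 to 6 across plates, while the columns number them 1 to 3 within each plate. With the latter as a replicate block, added after seeing the data, edgeR called 5 genes and 0 members. Deviations from the plate means of libraries with the same number correlated at 0.0245, 0.0290 and 0.0907 over 15669 genes, so the numbers were not taken to pair the wells, although 5 of the 6 libraries correlated best with their own number. Depth limits Gpx7, Gsta4, Gpx2 and Hmox1, which had 46 counts or fewer in every library.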
